A study of Mus musculus with 14 samples.

Results

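The 30 genes described here are mouse genes of cell death and of the p53 response, taken by symbol from a count table of 40840 gene symbols. All 30 symbols were found, and 23 of them passed the filter on low counts that left 14893 genes for testing. The list holds the effectors Bax and Bak1, the BH3-only genes Bid, Bad, Bbc3, Pmaip1, Hrk and Bcl2l11, and the prosurvival genes Bcl2l1, Bcl2 and Mcl1. It also holds the apoptosome genes Casp9 and Apaf1, Trp53 with its inhibitor Mdm2, and the p53 targets Cdkn1a, Trp53inp1, Phlda3, Ccng1, Eda2r, Aen, Sesn1 and Zmat3. The death receptor genes are Fas, Tnfrsf10b and Casp8, and the genes of necroptosis and pyroptosis are Ripk1, Ripk3, Mlkl and Gsdmd. The samples were 4 libraries from presymptomatic mice (pre), 4 from symptom onset and 1 from peak disease, all with experimental autoimmune encephalomyelitis (EAE), and 4 from naive control mice. EAE is an induced immune attack on myelin that serves as a model of multiple sclerosis and also involves the optic nerve. All mice were females of 7 to 8 weeks, the tissue was eyes, and the labelled cell type was retinal ganglion cells, the neurons whose axons form the optic nerve. The strain, the induction protocol and any sort for the cells are not given in the sources used here, and a second labelled peak sample was not analysed here. The labels do not say that replicates are separate animals, so p-values measure only the spread between these samples.

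Apoptosis through mitochondria is set by the BCL2 family. BH3-only proteins sense stress and engage the prosurvival members, which otherwise hold BAX and BAK in check; once free, BAX and BAK open the outer mitochondrial membrane, cytochrome c is released, and APAF1 assembles the apoptosome that activates caspase 9. p53 is a transcription factor that is kept low by MDM2 and, after DNA damage or axon injury, raises transcription of genes for cell cycle arrest, metabolism and death. Retinal ganglion cells are known to die by a BAX-dependent route after optic nerve injury. Death receptors act through caspase 8, and necroptosis and pyroptosis are lytic forms of death carried out by MLKL and by gasdermin D.

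p53 raises transcription of its targets through a response element, and 6 members carry a match to it close to a start site. Their promoter stretches are shown because they hold the letters that p53 is known to read. The search used 25 members with a RefSeq promoter window on mouse build GRCm38.p6, each window running 250 bases before to 50 bases after a start site. A match was a pair of adjoining half-sites of 10 bases of the p53 response element consensus, read on both strands, with at least 17 of 20 letters matched and the core C and G of each half-site present. Capitals mark the matched 20 bases, with 20 bases of flank on each side in lower case, written 5′ to 3′ on the strand of the gene.
Bbc3, chr7:16309466-16309525, plus strand: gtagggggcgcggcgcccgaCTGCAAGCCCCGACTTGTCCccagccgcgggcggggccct
Aen, chr7:78895917-78895976, plus strand: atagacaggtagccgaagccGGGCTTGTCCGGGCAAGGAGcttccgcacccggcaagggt
Sesn1, chr10:41887246-41887305, plus strand: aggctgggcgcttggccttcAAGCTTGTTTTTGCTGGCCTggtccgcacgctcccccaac
Ccng1, chr11:40755442-40755501, minus strand: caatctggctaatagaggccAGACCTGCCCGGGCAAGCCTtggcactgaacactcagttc
Trp53, chr11:69580264-69580323, plus strand: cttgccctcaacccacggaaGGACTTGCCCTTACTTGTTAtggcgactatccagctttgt
Cdkn1a, chr17:29090908-29090967, plus strand: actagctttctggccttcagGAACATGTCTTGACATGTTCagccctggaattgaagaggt
Ccng1 and Cdkn1a matched 19 of 20 letters and the other members 17 of 20. The match began at position -195 in Ccng1, -173 in Sesn1, -97 in Bbc3, -75 in Trp53, -51 in Cdkn1a and 10 in Aen, counted from the start site of the window. Bbc3, Aen, Sesn1 and Cdkn1a had more than 1 window, for several RefSeq start sites. At this setting 24% of the members with a window held a match, against 1.63% of the 27025 genes with a window. The members were chosen in part as known p53 targets, so a higher share follows from that choice and is not a result of these data. A match describes letters in a window and says nothing of binding in these cells. Pmaip1, Tnfrsf10b, Gsdmd, Trp53inp1 and Zmat3 had no window in the table.

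A library held between 2596705 and 7641214 counts over all genes. The label of ganglion cells was only partly borne out by the defining markers. Rbpms ranged from 1.88 to 64.6 CPM (read counts scaled to a common library total) and Pou4f2 from 0 to 19.2 CPM over the 13 libraries. Other markers of the ganglion cell list were higher, such as Thy1 at 307 to 681 CPM and Nefl at 103 to 633 CPM. Amacrine cell markers also differed from one another. Slc6a9, the glycine transporter of amacrine cells, ranged from 1379 to 3064 CPM, Gad1 from 761 to 1918 CPM and Slc32a1 from 402 to 587 CPM. Low markers of that list were Chat at 0.303 to 2.96 CPM, Slc18a3 at 0 to 2.47 CPM and Slc5a7 at 0 to 1.20 CPM. Indices of cell type markers, each the mean log2 CPM of a list, differed widely inside a stage. The rod index ran from 3.40 to 7.89 in naive, 3.86 to 6.81 in pre and 4.43 to 7.87 at onset, and was 6.20 at the peak. The microglia and macrophage index (16 markers) ran from 2.44 to 4.68 in naive, 4.19 to 5.71 in pre and 4.02 to 6.21 at onset, and was 5.33 at the peak. The neutrophil and monocyte index (11 markers) ran from 0.099 to 0.618 in naive, 1.58 to 2.37 in pre and 1.34 to 3.26 at onset, and was 2.16 at the peak. In bulk RNA of this kind, fewer cells of a type and less RNA per cell cannot be told apart.

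No member passed the test at any EAE stage: edgeR's quasi-likelihood test called 0 of 23 against naive at the pre, onset and peak stages. The background was the same for pre and onset, where edgeR called 0% of all genes tested, and was 0.161% at the peak (24 genes, 1 higher and 23 lower). DESeq2 called 0 of 23 members in pre, where 0.0403% of genes with an adjusted p were called, and 0 of 23 at onset, where 0.107% were, with 1 and 2 members under an unadjusted 0.05. At the peak DESeq2 gave an adjusted p for only 5 members (Bcl2l1, Mcl1, Mdm2, Sesn1 and Zmat3) and called 0 of them, where 5.46% of genes with an adjusted p were called, and 2 of the 23 were under an unadjusted 0.05. At an unadjusted p below 0.05 edgeR marked 2 members in pre, where 5.59% of all genes were marked. It marked 2 members at onset, against 5.96% of all genes, and 3 at the peak, against 9.56%. In onset against pre edgeR also called 0 members and 0% of all genes, with 2 members marked at the unadjusted threshold beside 6.82% of all genes. With pre and onset averaged and set against naive, edgeR called 0 members and 0% of genes, and 0 members were marked beside 6.04% of genes. In onset against pre DESeq2 gave an adjusted p for 6 members, called 0 of them beside 0.354% of genes with an adjusted p, and had 2 members under an unadjusted 0.05. It called 0 of 23 in the average, beside 0.0672% of genes, with 0 under an unadjusted 0.05.

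The median change of the members was small and slightly above that of all genes at each stage, and whether the list differs as a set was not tested. Their median log2 fold change against naive was 0.08 in pre, 0.10 at onset and 0.11 in the library from the peak, beside medians of -0.02, -0.01 and -0.03 over all genes tested. Of the 23, 13 were above 0 in pre, 16 at onset and 16 in the library from the peak, where 45.7%, 47.3% and 46.5% of all genes were above 0. A log2 fold change within 0.5 of zero was seen for 20 members in pre, 21 at onset and 17 in the library from the peak. The standard error (SE) of a member's log2 fold change had a median of 0.17 in pre and at onset and 0.26 in the library from the peak, and ran from 0.08 for Mdm2 to 0.83 for Cdkn1a in pre. The plot of changes by stage shows these values gene by gene.

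**Figure D1:**
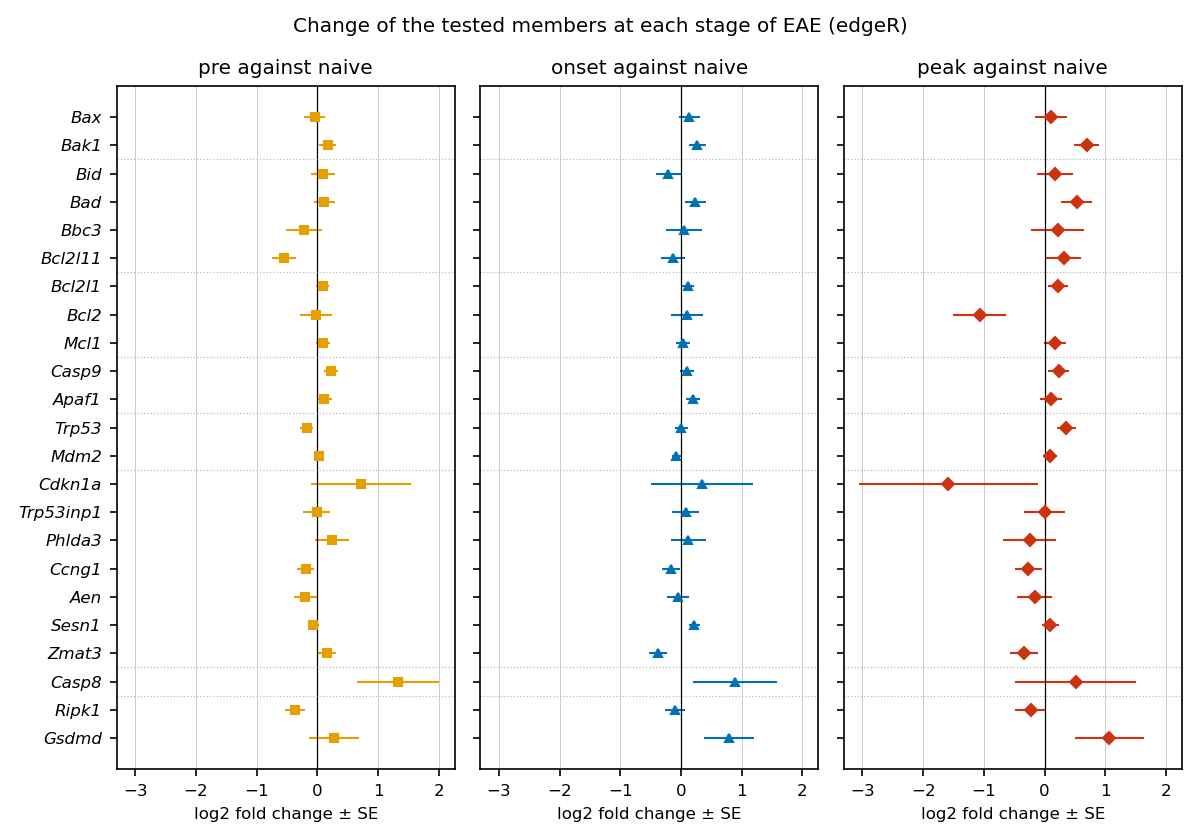
Log2 fold change against naive (x axis) of the 23 tested members (y axis, grouped by role with dotted lines) in pre, onset and peak, with bars for the SE of the edgeR fit. Most points sit within 0.5 of zero; Casp8 in pre and at onset, Gsdmd at onset and at the peak, and Bcl2 and Cdkn1a at the peak lie farthest out, each with a wide bar, and none passed the test.

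Levels between members can be compared only per length, and are given as CPM per kilobase of exon averaged over the 13 libraries. The prosurvival genes Mcl1 and Bcl2l1 led at 25.9 and 18.9 CPM per kilobase. Sesn1 followed at 15.8, Mdm2 at 13.9, Bax at 13.8, Ccng1 at 10.6, Casp9 at 8.26, Trp53 at 6.59, Bak1 at 5.98, Bad at 5.04 and Zmat3 at 4.25 CPM per kilobase. The other 12 tested members averaged between 0.875 (Casp8) and 3.51 (Trp53inp1) CPM per kilobase. Mcl1 ran from 20.5 to 31.1 CPM per kilobase over the libraries and Bcl2l1 from 15.3 to 22.1, so these neighbours overlapped. Bax at 10.8 to 18.7 and Mdm2 at 12.5 to 14.9 CPM per kilobase also overlapped, and their order is not firm.

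**Figure D2:**
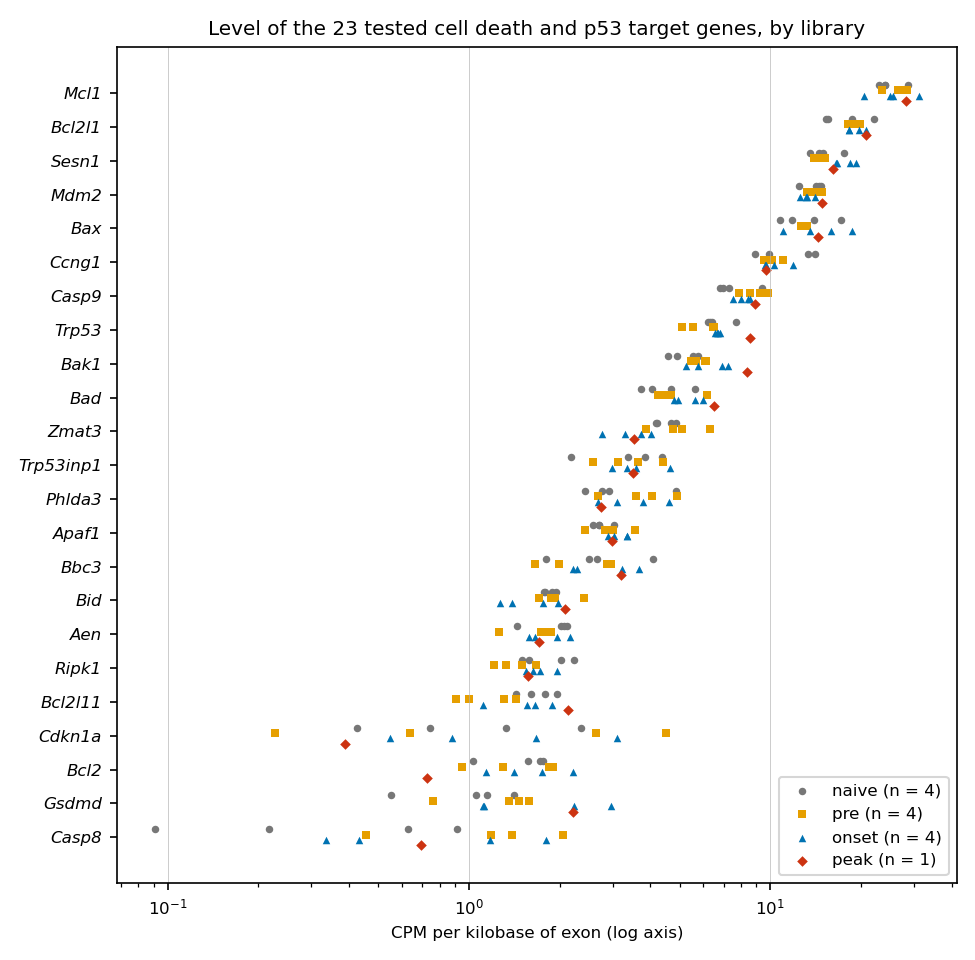
CPM per kilobase of exon on a log axis for each of the 23 tested members (y axis, highest at the top); every point is 1 library, coloured by stage. Most members span a narrow band with the stages intermixed, while Cdkn1a and Casp8 spread over more than a decade.

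The effectors BAX and BAK form the pores of the mitochondrial membrane. Bax averaged 21.2 ± 4.46 CPM in naive, 20.5 ± 0.425 in pre and 23.3 ± 5.14 at onset (SD, n = 4 each), and was 22.7 CPM in the peak library. Bax thus stood within the naive range of 16.98 to 27.04 CPM at all stages except in 1 onset library at 29.5 CPM. Bak1 was at 13.8, 13.4, 11.0 and 11.8 CPM in naive, at 14.7, 13.2, 13.6 and 14.6 in pre, at 17.4, 12.6, 16.7 and 13.9 at onset and at 20.2 CPM in the peak library. The peak value was above all 12 other libraries, and the onset and naive values overlapped. Bak1 at the peak had a log2 fold change of 0.69 ± 0.21 (SE), with an edgeR adjusted p of 0.249, the smallest of any member in the 5 comparisons of stages. At onset it was 0.27 ± 0.14 (adjusted p = 0.813), and 0.09 without the 4 libraries of highest rod index (naive 4 and 5, pre 4 and onset 3).

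The BH3-only genes encode the triggers of mitochondrial death, and Bcl2l11 (BIM), which neurons use after loss of trophic support, had the lowest log2 fold change of all members in pre. Its values in pre were 8.07, 10.5, 11.5 and 7.30 CPM, against 12.9, 11.5, 14.4 and 15.8 CPM in naive. The groups did not overlap, but only just: the highest pre library stood at 11.53 CPM and the lowest naive library at 11.55 CPM. Onset libraries had 13.3, 8.97, 12.5 and 15.1 CPM and the peak library 17.1 CPM, so 1 onset library lay inside the pre range and the others above it. Bcl2l11 in pre differed by a log2 fold change of -0.56 ± 0.20, with an edgeR unadjusted p of 0.0156 and an adjusted p of 0.807. Across the 22 alternatives the unadjusted p ran from 0.00913 to 0.314, and the change was -0.29 without the 4 libraries of highest rod index. In onset against pre the log2 fold change was 0.42 ± 0.20 (edgeR adjusted p = 0.742). Across all genes tested the pre and naive libraries did not overlap for 2.98%, and of the 23 members only Bcl2l11 was among them.

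The remaining BH3-only genes gave no call. Bad, which pairs with BCL-XL, was at 10.4, 14.4, 12.001 and 9.55 CPM in naive and at 16.7 CPM in the peak library, above all other libraries. Pre and onset values of Bad ran from 10.8 to 15.7 CPM and overlapped naive. Its log2 fold change at the peak was 0.53 ± 0.26 (edgeR adjusted p = 0.537). Bid, which caspase 8 cleaves to link death receptors to mitochondria, averaged 6.58 ± 0.292 CPM in naive, 7.03 ± 1.07 in pre and 5.68 ± 1.17 at onset (SD, n = 4 each), with 7.41 CPM at the peak. Bbc3 (PUMA), a p53 target that carries one of the promoter matches shown above, averaged 5.87 ± 2.02 CPM in naive, 5.03 ± 1.37 in pre and 6.04 ± 1.51 at onset, with 6.78 CPM at the peak. The stages of Bid and Bbc3 overlapped.

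Of the prosurvival genes, Mcl1 and Bcl2l1 (BCL-XL) were close to level and Bcl2 was lower in the peak library. Mcl1 averaged 85.1 ± 8.59 CPM in naive, 90.9 ± 7.34 in pre and 87.2 ± 14.9 at onset (SD, n = 4 each), with 96.1 CPM at the peak. Bcl2l1 averaged 82.0 ± 14.6 CPM in naive, 86.7 ± 3.63 in pre and 88.4 ± 5.69 at onset, with 95.6 CPM at the peak. Both peak values lay inside the naive range. Bcl2 was at 9.43, 15.7, 16.1 and 14.4 CPM in naive, 8.67, 17.4, 11.9 and 16.9 in pre, 12.9, 10.4, 20.3 and 16.03 at onset and 6.66 CPM in the peak library. The peak library held the lowest Bcl2 value, a log2 fold change of -1.07 ± 0.44 against naive (edgeR unadjusted p = 0.0305, adjusted p = 0.452), while the other stages were intermixed. The change rests on 1 library, which the fit assumed to vary like the others.

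The apoptosome genes gave small differences. Casp9, the initiator caspase that APAF1 activates, was at 51.2, 44.4, 48.2 and 41.0 CPM in pre, against 48.7, 37.8, 35.5 and 36.2 CPM in naive. All naive libraries except naive 1 lay below the 4 pre libraries. In pre the log2 fold change was 0.23 ± 0.11 (edgeR adjusted p = 0.807). It was 0.15 without the 4 libraries of highest rod index and 0.35 with the microglia index as a covariate, and neither passed the test. Onset libraries of Casp9 ran from 39.1 to 44.4 CPM and the peak library had 46.4 CPM. Apaf1 averaged 24.9 ± 1.71 CPM in naive, 26.8 ± 4.25 in pre and 28.5 ± 2.07 at onset (SD, n = 4 each), with 26.9 CPM at the peak.

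Trp53 and its inhibitor Mdm2, itself a p53 target, were among the steadiest members. Trp53 was at 25.2, 31.2, 25.9 and 25.6 CPM in naive, 22.4, 26.3, 26.2 and 20.6 in pre, 26.9, 27.6, 26.6 and 27.2 at onset and 34.7 CPM in the peak library. All 4 onset libraries were above all 4 pre libraries, the lowest onset value being 26.6 and the highest pre value 26.3 CPM, and the peak library was the highest of all 13. At the peak the log2 fold change of Trp53 was 0.36 ± 0.16, or 0.21 with the replicate number as a block in the fit. It rests on 1 library and did not pass the test. Mdm2 averaged 71.0 ± 5.12 CPM in naive, 72.4 ± 3.72 in pre and 67.3 ± 3.25 at onset (SD, n = 4 each), with 75.7 CPM at the peak. The within-stage SD of log2 CPM was 0.09 for Mdm2, the lowest of the tested members, and 0.13 for Trp53, beside a median of 0.24 over all genes tested.

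Among the p53 targets Zmat3 and Sesn1 were the members with an unadjusted p below 0.05 in onset against pre, in opposite directions. Zmat3 encodes an RNA-binding protein that acts on splicing downstream of p53, and it had 45.9, 37.8, 31.5 and 42.6 CPM at onset, against 44.2, 58.4, 71.9 and 54.4 CPM in pre. Naive libraries had 53.4, 55.6, 48.0 and 47.6 CPM and the peak library 40.3 CPM. All onset libraries and the peak library thus lay below all naive libraries, whereas pre libraries lay on both sides of them. The log2 fold change was -0.37 ± 0.15 in onset against naive (edgeR unadjusted p = 0.0247, adjusted p = 0.794) and -0.53 ± 0.15 in onset against pre (unadjusted p = 0.00317, adjusted p = 0.615). In onset against pre the adjusted p ran from 0.133 to 0.952 over 22 alternatives. Onset and naive libraries did not overlap for 3.08% of all genes tested, and Zmat3 was the 1 member among them.

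Sesn1 encodes sestrin 1, a p53-induced protein that restrains mTORC1 and oxidative stress, and has one of the promoter matches. It had 77.0, 66.2, 73.0 and 65.8 CPM at onset, against 55.7, 57.2, 56.9 and 60.4 CPM in pre. Naive libraries had 54.1, 69.8, 57.8 and 59.4 CPM and the peak library 64.4 CPM. The onset libraries were all above the pre libraries and above 3 of the 4 naive libraries. The log2 fold change was 0.29 ± 0.09 in onset against pre (edgeR unadjusted p = 0.00682, adjusted p = 0.615) and 0.22 ± 0.09 in onset against naive (unadjusted p = 0.0284, adjusted p = 0.794). Onset and pre libraries did not overlap for 4.46% of all genes tested, and Sesn1 and Trp53 were the members among them, both higher at onset. The ganglion cell index was 3.08 to 4.27 at onset, against 3.95 to 5.71 in pre, and its part in these differences was not tested.

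Cdkn1a encodes p21, the cell cycle inhibitor that is the best known p53 target, and it was the most variable member. It was at 4.72, 8.40, 2.64 and 1.52 CPM in naive, 0.807, 9.37, 16.1 and 2.27 in pre, 11.0, 1.94, 3.13 and 5.91 at onset and 1.38 CPM in the peak library. Every stage with 4 libraries held high and low values, and the spread inside pre alone covered the values of all other libraries. The within-stage SD of its log2 CPM was 1.26, so differences between stages of this gene were not detectable here. The slope of Cdkn1a on the ganglion cell index within stages was 0.91 ± 0.48 log2 per log2 unit (edgeR adjusted p = 0.533).

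The other p53 targets gave no call against naive in the fit of stages, while Ccng1 was called lower in pre and in the average when the microglia index was a covariate. That fit called many genes (counts at the end), and 1 of 23 members is a share near that of all genes. Ccng1 (cyclin G1) averaged 40.6 ± 8.93 CPM in naive, 35.8 ± 2.19 in pre and 36.4 ± 3.68 at onset (SD, n = 4 each), with 33.9 CPM at the peak. Aen, a nuclease that degrades DNA in apoptosis, averaged 11.1 ± 1.81 CPM in naive, 9.68 ± 1.62 in pre and 10.7 ± 1.57 at onset, with 9.92 CPM at the peak. Phlda3, an AKT inhibitor, averaged 5.06 ± 1.73, 5.93 ± 1.45 and 5.53 ± 1.32 CPM in naive, pre and onset, with 4.27 CPM at the peak. Trp53inp1, a stress protein of autophagy and cell death, averaged 22.3 ± 6.06, 22.3 ± 5.06 and 23.6 ± 4.66 CPM in naive, pre and onset, with 22.6 CPM at the peak. Each of these stage means lay within 1 SD of naive.

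**Figure D3:**
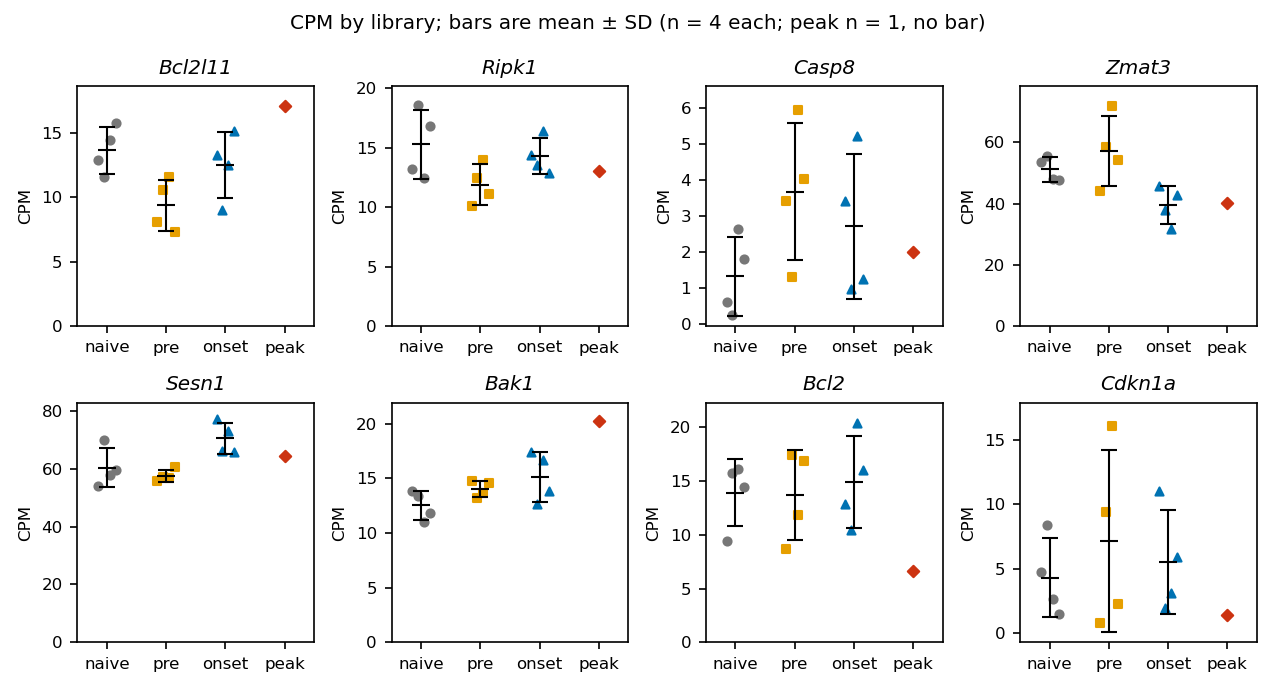
CPM (y axis, from 0) of 8 members in each library by stage (x axis); points are libraries and black bars the mean ± SD of 4 libraries, with 1 library and no bar at the peak. Bcl2l11 and Ripk1 have their lowest means in pre, Zmat3 is lowest and Sesn1 highest at onset, Bak1 is highest and Bcl2 lowest in the peak library, and Casp8 and Cdkn1a scatter within stages.

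Casp8, the initiator caspase of death receptors, had the highest log2 fold change of any member in pre, but at very low counts. It had 3.43, 1.32, 5.94 and 4.03 CPM in pre, against 0.629, 0.262, 2.64 and 1.82 CPM in naive, which were 58 and 26 counts in all. Onset libraries had 3.41, 0.970, 5.21 and 1.25 CPM and the peak library 2.01 CPM. The lowest pre library lay inside the naive range, and 2 onset libraries lay inside the naive range and the other 2 inside the pre range above it. In pre the log2 fold change of Casp8 was 1.33 ± 0.68 (edgeR adjusted p = 0.807). It was 0.23 with the microglia index as a covariate, 2.04 with the rod index as a covariate and 2.89 without the 4 libraries of highest rod index. None of these passed the test.

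Ripk1, a kinase that stands between NF-kB signalling, apoptosis and necroptosis, had 10.1, 12.5, 14.0 and 11.1 CPM in pre, against 13.2, 18.6, 12.5 and 16.8 CPM in naive. The groups overlapped, and the log2 fold change was -0.37 ± 0.17 (edgeR unadjusted p = 0.0458, adjusted p = 0.807). Onset libraries of Ripk1 ran from 12.9 to 16.4 CPM and the peak library had 13.1 CPM. Gsdmd, whose product gasdermin D forms the pores of pyroptosis, had 2.52, 1.31, 3.36 and 2.73 CPM in naive, 3.23, 1.81, 3.49 and 3.78 in pre, 5.31, 2.67, 7.04 and 2.65 at onset and 5.28 CPM in the peak library. Onset libraries overlapped naive in 2 of 4 cases and the other 2, with the peak library, were above all naive and pre libraries. Against naive the log2 fold change was 0.79 ± 0.41 at onset (edgeR adjusted p = 0.813) and 1.07 ± 0.57 at the peak (adjusted p = 0.578). With the microglia index as a covariate these were 0.26 and 0.33, and the change at onset was 0.45 without onset 3.

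The 7 members left out of the test were near the limit of detection. A single library cannot tell fewer than 3 counts from 0, which equals 0.377 to 1.14 CPM depending on its depth, counting error only. Pmaip1 (NOXA), a BH3-only p53 target, gave 0, 1, 2 and 1 counts in naive, 2, 4, 1 and 7 in pre, 2, 1, 6 and 0 at onset and 10 in the library from the peak. Hrk, a BH3-only gene of neurons, gave 0, 3, 1 and 4 counts in naive, 5, 7, 7 and 0 in pre, 5, 4, 3 and 4 at onset and 3 in the library from the peak. Both genes had counts in 11 of the 13 libraries, and neither was tested.

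Among the members, the death receptors Fas and Tnfrsf10b and the necroptosis genes downstream of RIPK1 were close to absent from the counts. This does not hold for all death receptors of the wider list described below. Fas gave 0 counts in the 4 naive libraries, 1 in pre, 3 at onset and 3 in the library from the peak, and Tnfrsf10b (the receptor for TRAIL) gave 6 in naive, 2 in pre, 7 at onset and 5 in the library from the peak. Ripk3 gave 0 counts in naive, 3 in pre, 4 at onset and 2 in the library from the peak, and Mlkl, the executioner of necroptosis, gave 1, 4, 1 and 0 counts in these stages. Eda2r, a p53-induced receptor, gave 1 count in all 13 libraries. At this depth differences of these 5 genes between stages were not detectable.

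Casp8 and Ccng1 followed the microglia and macrophage markers among libraries of the same stage. In a fit with the stage and the microglia index, the level of Casp8 rose by 0.92 ± 0.21 log2 per log2 unit of the index (edgeR adjusted p = 0.0144) and Ccng1 by 0.19 ± 0.04 (adjusted p = 0.0186). The background was high, since 7.68% of all genes tested passed for this index, so 2 of 23 members is a share near it. Gsdmd had a slope of 0.45 ± 0.15 (adjusted p = 0.0846). On the rod index Ccng1 rose by 0.11 ± 0.03 (edgeR adjusted p = 0.0183), the 1 member of 23 to pass where 8.57% of all genes did, and Casp8 had a slope of 0.49 ± 0.15 (adjusted p = 0.0565). The libraries with the highest microglia index in naive, pre and onset were also those with the highest rod index, so the slopes on the 2 indices are not independent. The indices parted in some libraries: pre 3 had a microglia index of 5.53 and a rod index of 4.96, against 5.71 and 6.81 in pre 4. Which of the 2 indices a slope belongs to was not tested. On the ganglion cell index 0 of 23 members passed with edgeR or DESeq2, with 0 under an unadjusted 0.05 by either, where 0.0806% of all genes passed with edgeR and 0.967% with DESeq2.

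The slopes can be read from the libraries themselves. Casp8 was at 0.629 and 0.262 CPM in naive 1 and 2, where the microglia index was 2.44 and 2.46, and at 2.64 and 1.82 CPM in naive 4 and 5, where it was 4.33 and 4.68. Ccng1 was at 34.9 and 31.2 CPM in naive 1 and 2 and at 46.8 and 49.6 CPM in naive 4 and 5. At onset the highest Casp8, Gsdmd and Ccng1 values were 5.21, 7.04 and 41.7 CPM, all in onset 3, whose index of 6.21 was the highest of the 13 libraries. The call of Casp8 was lost without onset 3 (adjusted p = 0.0519) and that of Ccng1 on the microglia index without naive 2 (adjusted p = 0.0562) or naive 5 (adjusted p = 0.0912). On the rod index the call of Ccng1 was lost without naive 5 (adjusted p = 0.1004) or onset 3 (adjusted p = 0.0509). Without the 4 libraries of highest rod index none of these calls held: the slope of Casp8 on the microglia index was 1.58 and that of Ccng1 0.04, and the slope of Ccng1 on the rod index was -0.04. Casp8 and Ccng1 were also the members with a called slope in DESeq2 on the microglia index, where 8.7% of all genes were called, and on the rod index, where 9.55% were.

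**Figure D4:**
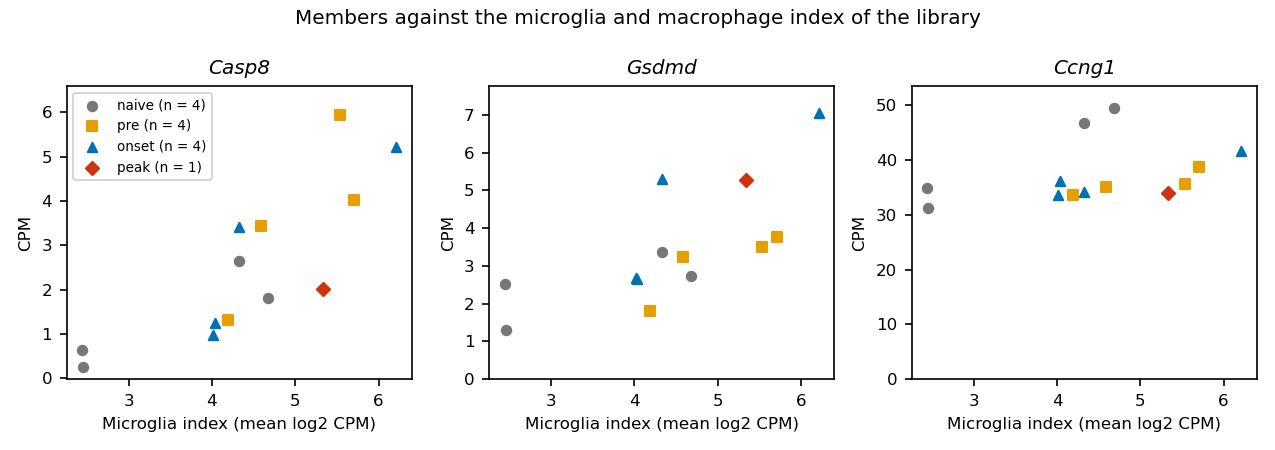
CPM (y axis, from 0) of Casp8, Gsdmd and Ccng1 in each of the 13 libraries against the microglia and macrophage index of the library (x axis, mean log2 CPM of 16 markers), coloured by stage. Casp8 is lowest in the 2 naive libraries with the lowest index and high in onset 3 at the far right; Ccng1 is highest in naive 4 and 5.

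A wider list of 93 genes of the same pathways, of which 77 were tested, also gave 0 calls with edgeR in all 5 comparisons of stages. The number under an unadjusted p of 0.05 was 3 in pre, 4 at onset and 6 in the library from the peak against naive, 2 in onset against pre and 3 in the average. These counts stand beside 5.59%, 5.96%, 9.56%, 6.82% and 6.04% of all genes. At the peak DESeq2 gave an adjusted p for 25 of the 77 and called 3, all lower, the regulators Trp53bp1 and Atm and the inhibitor Birc6, where 5.46% of all genes with an adjusted p were called (25 higher and 268 lower). It called 0 in the other 4 comparisons, with 26 genes given an adjusted p in onset against pre, and its unadjusted counts were 3 in pre, 4 at onset, 2 in onset against pre and 3 in the average. Medians of the 77 log2 fold changes were -0.01 in pre, -0.02 at onset and 0.03 in the library from the peak. The genes named next are those with the smallest unadjusted p of each group against naive, and none passed with edgeR.

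The p53 regulators were the group with the lowest median at the peak: all 10 tested were below 0 in the peak library, with a median log2 fold change of -0.41, where 46.5% of all genes were above 0. The group is set apart here by that median, which rests on 1 library. That library also had the most counts and the lowest ganglion cell index (2.76) of the 13 libraries, and their part in this was not tested. Trp53bp1, which encodes the DNA repair protein 53BP1, was at 179 CPM in the peak library, against 240, 251, 229 and 228 CPM in naive, a log2 fold change of -0.40 ± 0.11 (edgeR adjusted p = 0.218, DESeq2 adjusted p = 0.00979). Atm, the kinase that activates p53 at DNA breaks, was at 53.3 CPM in the peak library, against 75.1, 73.0, 78.0 and 90.2 CPM in naive, a log2 fold change of -0.57 ± 0.17 (edgeR adjusted p = 0.259, DESeq2 adjusted p = 0.0466). For both genes the peak library was below all 12 others. In pre and at onset 6 and 7 of the 10 regulators were below 0.

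Among caspases and their inhibitors, 4 of 9 tested genes were above 0 at the peak. Birc6, a giant inhibitor of apoptosis protein, was at 338 CPM in the peak library, against 473, 601, 529 and 578 CPM in naive, a log2 fold change of -0.69 ± 0.16 (edgeR adjusted p = 0.128, DESeq2 adjusted p = 0.000645). Casp2, a caspase that responds to DNA damage, was at 26.6, 22.2, 23.4 and 21.1 CPM in pre, against 30.2, 28.1, 27.8 and 33.4 CPM in naive. The pre and naive groups of Casp2 did not overlap, as for 4 of the 77 genes and 2.98% of all genes. In pre the log2 fold change was -0.36 ± 0.12 (edgeR adjusted p = 0.807). The difference was not particular to pre: onset libraries of Casp2 ran from 21.4 to 26.9 CPM and the peak library had 21.7 CPM, also below all naive libraries.

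Among 25 other tested p53 targets, 12 were above 0 in pre, 11 at onset and 17 in the library from the peak. Gadd45a, a DNA damage and stress gene, was at 8.07, 12.01, 6.64 and 5.29 CPM in pre, against 33.3, 7.87, 15.6 and 79.9 CPM in naive. The naive values spread widely, naive 2 lay inside the pre range, and the log2 fold change was -2.08 ± 0.61 (edgeR adjusted p = 0.807), or -1.20 without naive 5 and -1.15 without the 4 libraries of highest rod index. Psrc1, a spindle gene, was at 7.96, 6.30, 8.34 and 9.34 CPM at onset, against 3.14, 5.25, 2.64 and 2.58 CPM in naive. These groups did not overlap, as for 2 of the 77 genes and 3.08% of all genes, and the log2 fold change was 1.25 ± 0.41 (edgeR adjusted p = 0.785).

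The other groups gave weaker differences. Of the BCL2 family, Bcl2a1b, a prosurvival gene of myeloid cells, had a log2 fold change of 2.03 ± 0.86 at onset (edgeR adjusted p = 0.813) at no more than 3.91 CPM in any library, and 1.08 with the microglia index as a covariate. Bcl2l2 (BCL-W) had a log2 fold change of 0.15 ± 0.08 in pre (edgeR adjusted p = 0.807). Of death receptor signalling, the TNF receptors Tnfrsf1a and Tnfrsf1b had log2 fold changes of 1.11 ± 0.57 at onset and 1.31 ± 0.88 at the peak (edgeR adjusted p = 0.813 and 0.670), or 0.48 and -0.15 with the microglia index as a covariate. Of lytic death and ferroptosis, Zbp1, a nucleic acid sensor, had 2.03 ± 0.96 and Gpx4, the lipid peroxidase that blocks ferroptosis, 0.27 ± 0.14 log2 at the peak (edgeR adjusted p = 0.531 and 0.574), or 1.22 and 0.12 with the microglia index as a covariate.

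On the marker indices the wider list did give calls. With the microglia index edgeR called 10 of 77 genes, 8 upward (Cflar, Tnfrsf1b, Tnfaip3, Nlrp3, Trp53bp2, Hipk2, Abhd4 and Ptp4a3) and 2 downward (Ppp1r13b and Plk2), beside 7.68% of all genes. Of these, the inflammasome sensor Nlrp3 had a slope of 1.18 ± 0.21 log2 per log2 unit and the TNF receptor Tnfrsf1b 0.997 ± 0.092. The NF-kB inhibitor Tnfaip3 had 0.93 ± 0.11 and the caspase 8 regulator Cflar 0.44 ± 0.06. With the rod index edgeR called 9 of 77, 7 upward (Bcl2a1b, Cflar, Tnfrsf1b, Tnfaip3, Nlrp3, Trp53bp2 and Ptp4a3) and 2 downward (Acsl4 and Ppp1r13b), beside 8.57% of all genes. DESeq2 called the same 10 genes on the microglia index and 12 on the rod index, those 9 with Abhd4, Cyld (slope -0.07 ± 0.02 in edgeR) and Il18 (0.38 ± 0.11). When each library was left out in turn, 5 of the 10 and 4 of the 9 calls held every time, Cflar, Ptp4a3, Tnfaip3 and Tnfrsf1b on both indices and Ppp1r13b on the microglia index. Without the 4 libraries of highest rod index 0 of 10 and 0 of 8 held with edgeR, where Bcl2a1b was not fitted on the rod index.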

How the data were processed

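For 13 libraries the authors deposited raw counts of reads by gene symbol in 1 table. Per the submitters' processing notes the tools were cutadapt, HISAT2, HTSeq and DESeq2. Their versions, the genome build, the annotation and the strand setting are not given in the sources used here. Without strand, overlapping and antisense genes cannot be separated. The 5 HTSeq summary lines, 29.6% to 34.8% of the counts of a library, were left out. The test was edgeR's (version 4.0.16, under R 4.3.3), with TMM factors, a filterByExpr filter by stage at a minimum count of 10 and 1 robust quasi-likelihood fit over the 4 stages with two-sided F tests. Adjusted p is Benjamini-Hochberg over 14893 genes, with a threshold of 0.05. DESeq2 1.42.0 was an alternative. The index slopes add the mean log2 CPM (prior count 2) of a marker list to the stage. CPM uses TMM-scaled library sizes, and exon lengths are GENCODE M21 unions. The members, marker lists and pathway lists were chosen with earlier results of these data known. All members are named; other pathway genes are named where edgeR or DESeq2 called them, or for having the 2 smallest p of their list against naive. A gene of the pathway lists is not reported here. The pipeline was tested on simulated data. RefSeq promoter windows are of GRCm38.p6.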

Additional observations from a re-analysis of the deposited data

Results flagged for a closer look

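In 8 of 90 groups of a member and a stage, a library lay farther from the others than Dixon's 95% limit for 4 values allows. Chance sets about 1 in 20 groups of 4 normally distributed values apart. That rate does not apply to groups with mostly 0 counts, and groups with only 0 counts could not be flagged, so the 2 shares cannot be compared. Both well-covered cases were in naive 2: Trp53 was at 31.24 CPM, against 25.15 to 25.92 CPM in the other naive libraries, and Aen was at 8.40 CPM, against 11.76 to 12.26 CPM. The other 6 cases were single libraries with 1 to 3 counts where the rest of the stage had 0: Eda2r at 0.1556 CPM in onset 4, Fas at 0.3492 CPM in pre 3, Tnfrsf10b at 0.4033 CPM in pre 1, Ripk3 at 0.4934 CPM in pre 2, and Mlkl at 0.2625 CPM in naive 2 and 0.1556 CPM in onset 4.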

How the results depend on the processing

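Of 635 refits of the named log2 fold changes between stages, 631 kept their direction and side of the threshold, and DESeq2 gave no adjusted p in 8 more. None of these changes had passed in the main fit, so keeping the side does not measure stability. Sizes moved more: Casp8 in pre, at 1.33 in the main fit, ran from 0.23 to 2.89 over 22 alternatives. Of 590 refits of the named slopes 514 kept their direction and side, 67 lost the call, 5 gained it and 4 turned in sign. DESeq2 brought Birc6, Trp53bp1 and Atm past the threshold at the peak, and Tnfrsf1b at the peak turned to -0.15 with the microglia index as a covariate. Counts over all genes moved more. DESeq2 called 6 genes in pre, 16 at onset, 293 at the peak, 20 in onset against pre, 10 in the average and 144 on the ganglion cell index. With the rod index as a covariate 100, 1, 111 and 93 genes were called in pre, at onset, at the peak and in the average. With the microglia index these were 631, 434, 282 and 668, and 1 member, Ccng1, was called lower in pre and in the average. A fit of only the groups compared called 0 genes at the peak. With stage means taken out, same-numbered libraries of different stages correlated at -0.39 to 0.29 (median 0.08) and the other pairs at -0.42 to 0.48 (median -0.06). These overlapping ranges showed no pairing by replicate number but cannot exclude one. A replicate block removed the calls at the peak, where no named gene was called by edgeR with or without it. The log2 fold changes at the peak were then 0.21 for Trp53, 1.75 for Gsdmd and 2.44 for Tnfrsf1b. Without the 4 libraries of highest rod index, an alternative added after the data were seen, 140 genes were called at the peak, 361 on the rod index, 1 on the microglia index and 152 on the ganglion cell index, and 0 members on the rod and microglia indices. The sign turned there in slopes of Ccng1 on the rod index (-0.035), and Bbc3 (0.11), Ptp4a3 (-0.053) and Tnfaip3 (-0.032) on the microglia index. With no filter on low counts 37 genes were called on the ganglion cell index and 2 members on the rod index, where DESeq2 also called 2. Leaving out each library in turn gave 0 to 1 gene at onset and in the average, 6 to 25 at the peak, 681 to 1260 on the rod index, 674 to 1152 on the microglia index and 5 to 24 on the ganglion cell index, with 0 to 2 members on the rod and 1 to 2 on the microglia index. The cause of these moves was not tested. Other scaling factors moved the median of all genes by at most 0.013 log2. Depth limits the 7 untested members most, with 1 to 46 counts each over all libraries.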
